A study of Mus musculus with 6 samples.

Results

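Milk antibodies reach the lumen of the mammary gland through a chain of genes that belong to different cells, and 8 of them were followed here in Rac1-/- and WT glands at involution day 2. Pigr and Ccl28 are used by the epithelium, Jchain and Mzb1 by antibody-secreting plasma cells, and Cd79a, Cd79b, Ms4a1 and Fcrla by B cells. They were chosen by name as markers of B and plasma cells, the epithelial IgA carrier and its chemokine, and every probe set whose annotation names 1 of these symbols alone was taken, which gave 14 of the 45101 probe sets on the array and 8 of the 18194 genes tested. The tested glands came from 3 Rac1fx/fxYFP;WAPiCreTg/• females (Rac1-/-), whose Cre transgene uses the whey acidic protein (WAP) promoter. This milk protein promoter restricts deletion to luminal cells and is switched on during pregnancy. The controls were 3 age-matched Rac1fx/fxYFP females without Cre (WT), so both groups carried the floxed Rac1 alleles and the YFP reporter, and no array here had Cre with intact Rac1. Total RNA of the fourth inguinal gland of each mouse was hybridized to 1 Affymetrix mouse GeneChip array, without pooling. Mice are numbered within each group in the order of deposit, and the numbers pair no mice. B cells and plasma cells do not use this promoter.

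The polymeric immunoglobulin receptor, encoded by Pigr, binds dimeric IgA at the basal side of a luminal cell, carries it across the cell and releases it into milk. The dimer is held together by the J chain, which plasma cells make. These plasma cells are drawn into the lactating gland by the chemokine CCL28 through its receptor CCR10. B cells that have not yet become plasma cells carry the antigen receptor, with CD79A and CD79B as its signalling partners, and the surface protein CD20, encoded by Ms4a1. The inguinal gland also lies around a lymph node, and the sources used here do not say whether it was removed. In whole-gland RNA, fewer cells of a type and less RNA per cell cannot be told apart.

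Of the members, 5 have a RefSeq promoter window in the table used (GRCm38.p6, 250 bases before to 50 after the gene start). A window is shown for Pigr, which had the largest fold difference of the members, for Jchain, the brightest plasma cell member, and for Cd79a, a B cell member. Capitals mark matches to 4 motifs searched on both strands. These are the E-box CACGTG, which is bound by USF proteins, the Stat motif TTCNNNGAA, the octamer ATGCAAAT of antibody genes and the early B cell factor motif CAAGGGAAT.
Pigr, chr1:130826434-130826733, plus strand: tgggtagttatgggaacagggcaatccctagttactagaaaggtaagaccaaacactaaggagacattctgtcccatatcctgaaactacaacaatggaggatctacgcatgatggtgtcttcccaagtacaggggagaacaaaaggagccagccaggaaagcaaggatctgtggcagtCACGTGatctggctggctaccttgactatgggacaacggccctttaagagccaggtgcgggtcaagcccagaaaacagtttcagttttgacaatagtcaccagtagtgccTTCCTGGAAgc
Jchain, chr5:88527848-88528147, minus strand: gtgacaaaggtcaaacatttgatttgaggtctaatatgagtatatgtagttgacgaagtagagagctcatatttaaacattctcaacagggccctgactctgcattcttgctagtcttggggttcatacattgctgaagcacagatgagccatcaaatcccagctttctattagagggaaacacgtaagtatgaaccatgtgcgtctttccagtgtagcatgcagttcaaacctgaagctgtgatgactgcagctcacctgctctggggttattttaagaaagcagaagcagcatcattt
Cd79a, chr7:24897247-24897546, plus strand: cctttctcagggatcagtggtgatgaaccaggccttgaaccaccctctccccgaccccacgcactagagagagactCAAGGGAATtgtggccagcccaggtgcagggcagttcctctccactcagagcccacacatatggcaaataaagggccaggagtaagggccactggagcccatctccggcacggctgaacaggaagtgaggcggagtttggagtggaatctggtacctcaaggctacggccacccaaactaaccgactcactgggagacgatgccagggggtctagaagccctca
The Pigr window held the E-box at positions -71 to -66 from the start and the Stat letters at positions 39 to 47. The Cd79a window held CAAGGGAAT at positions -174 to -166, and none of the motifs was found in the windows of Jchain, Ccl28 and Fcrla. Among 32851 promoter windows of the same length the E-box was present in 7.15%, the Stat motif in 8.3%, the octamer in 1.74% and the early B cell factor motif in 0.244%. A match describes the letters in a window, and factor binding was not measured.

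Values are log2 intensities after quantile normalization unless deposited intensities are named, and differences are Rac1-/- minus WT. The median deposited intensity was 56.0, 88.0 and 71.7 on the Rac1-/- arrays and 40.6, 45.5 and 71.5 on the WT arrays, and the interquartile range of log2 intensity ran from 1.23 to 1.98 in Rac1-/- and from 1.42 to 2.85 in WT glands. Rac1-/- mouse 2 and WT mouse 3 stood away from the remaining arrays on principal component 1 (44.3% of the variance). For actin, log2 intensity of the 3' minus the 5' control probe set, a readout of RNA quality and amplification, was -0.42, -1.24 and -0.30 on the Rac1-/- arrays and 0.048, 0.033 and -0.17 on the WT arrays, without overlap. A model that includes this actin measure can therefore not tell its part from that of genotype. Rac1 itself read 9.51, 9.01 and 9.84 in Rac1-/- glands and 9.31, 9.50 and 8.97 in WT glands, and the groups overlapped. Which exons were deleted is unknown here, so this probe set may not check the labels. Under limma with Benjamini-Hochberg adjustment over all genes, 0 genes (0%) passed an adjusted p of 0.05, while an unadjusted p under 0.05 was reached by 405 genes that were higher and 332 that were lower without Rac1. All 14 luminal epithelial markers lay above the median level of all genes, as did 10 of 17 B cell receptor and surface genes and 4 of 14 T cell markers.

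Pigr was the member with the largest fold difference, and it was lower in Rac1-/- glands on both of its probe sets. Neither difference passed adjustment over all genes. On the brighter probe set the deposited intensities were 190, 442 and 175 in Rac1-/- glands, against 904, 1189 and 6618 in WT glands. The highest Rac1-/- gland thus lay under the lowest WT gland, and WT mouse 3 stood far above the rest. After normalization the log2 values were 7.53, 9.83 and 7.53 in Rac1-/- glands and 9.37, 9.83 and 12.92 in WT glands, so that Rac1-/- mouse 2 now lay among the WT mice. The difference of the means, 8.29 ± 1.33 against 10.71 ± 1.93 (SD, n = 3 each), was -2.42 (SE 1.02, 95% interval -4.73 to -0.096), or 5.34-fold lower in Rac1-/- glands, with a limma p under 0.05 before adjustment and an adjusted p of 0.946. Among all genes, 46 had a log2 fold change at or below that of Pigr.

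The second Pigr probe set gave deposited intensities of 550, 117 and 266 in Rac1-/- glands and 1500, 2581 and 577 in WT glands. Its log2 values of 8.96, 6.59 and 8.19 in Rac1-/- glands all lay under the 10.08, 11.00 and 9.38 of the WT glands. The difference was -2.23 (SE 0.73, 95% interval -3.91 to -0.56), with a limma p under 0.05 before adjustment and an adjusted p of 0.948 over 45037 probe sets. In that test 2.17% of probe sets were lower at an unadjusted p under 0.05, 4.86% had every Rac1-/- array below every WT array, and 2.91% did so in the deposited intensities, where both Pigr probe sets belonged to this share. The size of the difference was similar on both probe sets, but they ordered the mice differently. Rac1-/- mouse 2 and WT mouse 3 were the highest of their groups on the brighter probe set and the lowest on the other, and over the 6 arrays the probe sets had a Pearson r of 0.177. These are the arrays that lay apart on the first principal component. With the mean of both probe sets the difference was -2.33 (SE 0.47, limma adjusted p = 0.819), and every Rac1-/- gland lay below every WT gland.

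**Figure D1:**
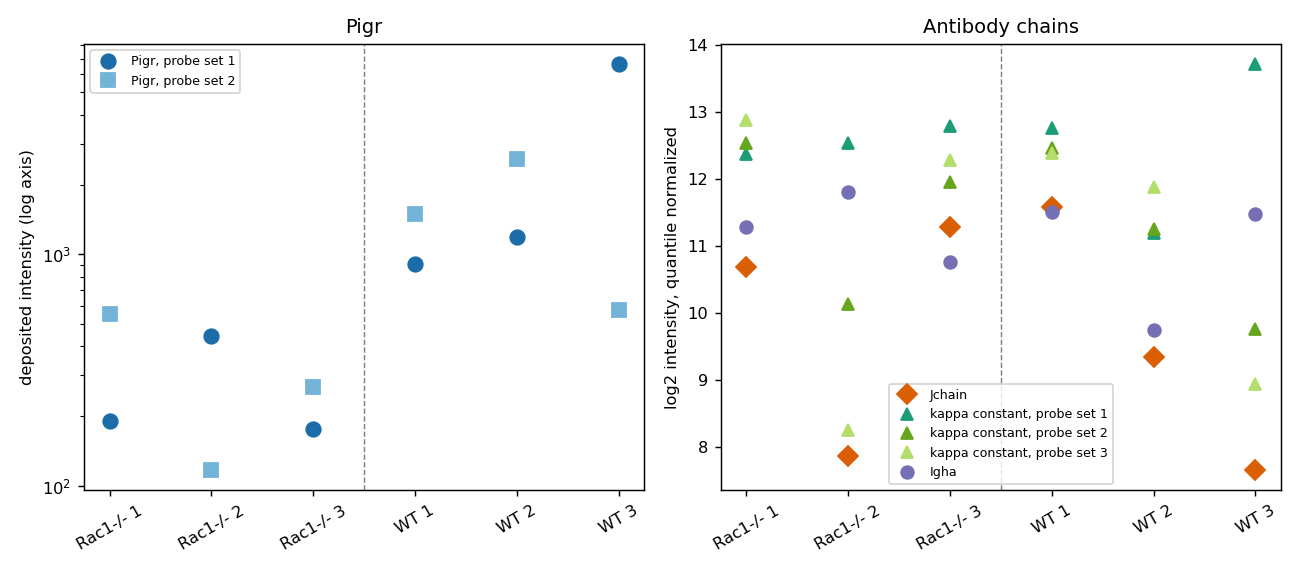
Left, deposited intensity of both Pigr probe sets (log axis) in each of 3 Rac1-/- and 3 WT glands; right, log2 intensity of Jchain, of 3 probe sets that name the kappa constant gene and of the brightest Igha probe set in the same glands. Every Rac1-/- gland lies below every WT gland on each Pigr probe set, whereas Jchain and 2 of the kappa probe sets are lowest in Rac1-/- mouse 2 and WT mouse 3.

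The direction for Pigr was negative in all 18 alternatives, from -4.47 with the actin measure as covariate to -1.61 without Rac1-/- mouse 2. The actin measure separated the groups, so the -4.47 cannot tell its part from that of genotype. Several alternatives keep the same values on the same probe set and return the same difference. The -1.61 rests on the second probe set, which then had the highest mean, so the range does not describe a single probe set. The unadjusted p was under 0.05 in 16 of the 18 alternatives, and the exceptions were without Rac1-/- mouse 1 (-2.01) and without Rac1-/- mouse 3 (-2.06). The lowest adjusted p was 0.465. Without WT mouse 3, the brightest mouse, the value was -2.64, on the second probe set. The 5 genes most like the brighter Pigr probe set over the 6 arrays were sought among 9092 genes above the median level. They were Hyou1 (Pearson r = 0.996), Spout1 (0.994), Nedd4l (0.983), Ahcyl2 (0.981) and Cpd (0.979). The other Pigr probe set had an r of 0.177 to the brighter one. Hyou1, a chaperone of the endoplasmic reticulum, had a log2 difference of -1.12 (SE 0.60). The arrays share their group and their quality differences, and these correlations are a description.

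Ccl28, the other epithelial member, gave differences of either sign on its 3 probe sets. On the brightest, the log2 values were 6.27, 8.10 and 6.30 in Rac1-/- glands and 6.57, 3.37 and 6.20 in WT glands. The groups overlapped, with Rac1-/- mouse 2 high and WT mouse 2 low, where the deposited intensities were 199 and 3.03. The difference was 1.51 (SE 0.91, 95% interval -0.56 to 3.58, limma adjusted p = 0.946). It was 0.47 without WT mouse 2 and, on another probe set that then had the highest mean, 0.048 without Rac1-/- mouse 2 and -0.12 without WT mouse 1. The other probe sets gave 0.26 and -0.995, and the one with the negative value lay below the array median on all 6 arrays.

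Jchain was bright in every gland and varied widely within each group. Its log2 values were 10.69, 7.87 and 11.28 in Rac1-/- glands and 11.59, 9.34 and 7.66 in WT glands. The groups overlapped over nearly their whole range, and the lowest of each was again Rac1-/- mouse 2 or WT mouse 3. The deposited intensities were 2007, 184 and 1653 in Rac1-/- glands and 4528, 836 and 185 in WT glands. The difference was 0.42 (SE 1.14, 95% interval -2.18 to 3.02, limma adjusted p = 0.982), an interval that leaves room for a several-fold change in either direction. Without both low arrays it was 0.53. Adding the actin measure or the interquartile range to the model made it 2.99 or 2.19. The actin measure separated the groups, so the 2.99 cannot tell its part from that of genotype. For Jchain the unadjusted limma p was under 0.05 in 2 of the 18 alternatives, and the lowest adjusted p was 0.76. The sign turned without WT mouse 3 (-0.52), without Rac1-/- mouse 3 (-0.25), with a common median (-0.54) and without normalization between arrays (-0.066).

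Mzb1, an endoplasmic reticulum protein that helps assemble and secrete antibody in B and plasma cells, differed little. The log2 values were 6.25, 5.95 and 6.16 in Rac1-/- glands and 6.68, 6.21 and 5.92 in WT glands, with overlap. The difference was -0.15 (SE 0.44, 95% interval -1.15 to 0.85). Over the 6 arrays Jchain and Mzb1 had a Pearson r of 0.816, whereas Jchain and Pigr, on its brighter probe set, had one of -0.765. The other Pigr probe set ordered the mice differently, so this value describes the brighter probe set alone.

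**Figure D2:**
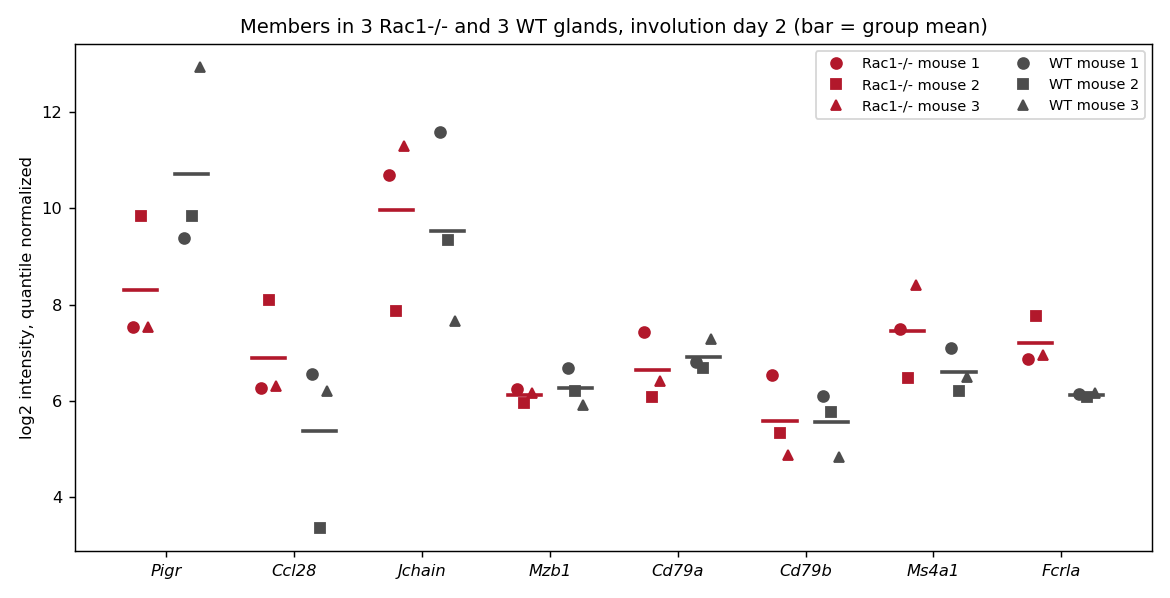
Log2 intensity (quantile normalized) of the 8 members, each on its probe set with the highest mean, in 3 Rac1-/- glands (red, left) and 3 WT glands (grey, right); symbols mark the mice and bars the group means. The groups separate fully for Fcrla alone, where Rac1-/- glands lie between 6.88 and 7.77 and WT glands between 6.09 and 6.16.

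The bright antibody chains differed by less than the spread between mice. The 56 probe sets that name immunoglobulin genes had 26 positive and 30 negative differences, with a median of -0.045. In them 4 had an unadjusted p under 0.05, all lower in Rac1-/- glands, beside 2.17% of all probe sets. These 4 were dim, and 2 of them had a Rac1-/- value at the floor. The one below without overlap, which names Ighv14-2, Ighg3 and Ighm, read 4.95, 4.25 and 2.504 in Rac1-/- glands and 5.75, 5.67 and 6.38 in WT glands (-2.03, SE 0.68, limma adjusted p = 0.948). Of the 11 with a mean log2 intensity above 8, 8 were positive and 3 negative, from -0.44 to 1.01, and none separated the groups. The IgA heavy chain, Igha, was among the brightest genes, with log2 values of 11.28, 11.80 and 10.77 in Rac1-/- glands and 11.50, 9.76 and 11.48 in WT glands. The groups overlapped, and its 3 probe sets gave differences of 0.37 (SE 0.62), 0.61 (SE 0.59) and 0.31 (SE 0.58). The IgM heavy chain, Ighm, gave 0.16 (SE 0.75). Of the dimmer genes, Ighv14-2 on its own probe set gave 0.74 (SE 0.43), the 1 case above without overlap, and Igkv1-117 was at the floor in Rac1-/- mice 2 and 3, so no fold is given. Antibody segments are near copies of each other, so a probe set may read several of them.

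Probe sets that name the same 5 kappa segments, the constant gene Igkc among them, ordered the mice differently. One gave 12.88, 8.26 and 12.28 in Rac1-/- glands and 12.39, 11.88 and 8.94 in WT glands, low in the same mice as Jchain, with a Pearson r of 0.908 to Jchain. Another gave 12.38, 12.54 and 12.79 in Rac1-/- glands and 12.76, 11.20 and 13.71 in WT glands, high in those mice, with an r of -0.181. The low Jchain values of Rac1-/- mouse 2 and WT mouse 3 were thus met on some antibody probe sets and not on others. The part of RNA quality in this was not tested.

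Of the B cell members, Fcrla separated the groups and the others did not. Fcrla encodes a Fc receptor-like protein that stays inside B cells. Its deposited intensities were 116, 178 and 126 in Rac1-/- glands and 49.6, 51.6 and 80.1 in WT glands. Its log2 values were 6.88, 7.77 and 6.95 in Rac1-/- glands and 6.14, 6.09 and 6.16 in WT glands, so every Rac1-/- gland lay above every WT gland. The means were 7.20 ± 0.50 and 6.13 ± 0.035 (SD, n = 3 each). The difference was 1.07 (SE 0.45, 95% interval 0.039 to 2.10, limma adjusted p = 0.946). Before adjustment p was under 0.05, with 2.23% of all genes higher at an unadjusted p under 0.05 and 5.41% above without overlap.

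Fcrla was positive in all 18 alternatives and without overlap in 17 of them, and the unadjusted p was under 0.05 in 7. Several alternatives keep the same values on the same probe set, so they could not change the sign or the overlap. The Fcrla difference was lowest, at 0.25, with the mean of its 3 probe sets. The other 2 probe sets gave -0.17 and -0.16, with overlap, and were below the array median on all 6 arrays. The highest Fcrla value was in Rac1-/- mouse 2, the array with the narrowest interquartile range. Without that mouse the difference was 0.87, and it was 0.50 with the actin measure in the model.

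Ms4a1 read 7.49, 6.48 and 8.41 in Rac1-/- glands and 7.10, 6.21 and 6.50 in WT glands on its brighter probe set. Rac1-/- mice 1 and 3 were the highest, and Rac1-/- mouse 2 lay within the WT range. The difference was 0.86 (SE 0.59, 95% interval -0.48 to 2.20, limma adjusted p = 0.946). It was 1.47 without Rac1-/- mouse 2, when the groups no longer overlapped, and 0.40 without Rac1-/- mouse 3. Over all 18 alternatives it ran from 0.33, with the mean of its probe sets, to 1.92, with the actin measure in the model. The dimmer probe set gave -0.20 (SE 0.69), with overlap.

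The signalling partners of the antigen receptor showed no common shift. Cd79a read 7.42, 6.08 and 6.42 in Rac1-/- glands and 6.80, 6.68 and 7.28 in WT glands, a difference of -0.28 (SE 0.51, 95% interval -1.44 to 0.88). Cd79b read 6.53, 5.33 and 4.88 in Rac1-/- glands and 6.11, 5.78 and 4.84 in WT glands, a difference of 0.0095 (SE 0.59, 95% interval -1.34 to 1.36). The groups overlapped for both genes. Cd79a was -0.66 without Rac1-/- mouse 1, when every Rac1-/- gland lay below every WT gland, and -0.0034 without Rac1-/- mouse 2. Cd79b was -0.46 without Rac1-/- mouse 1 and -0.37 without WT mouse 3. Their products form a pair in the receptor, yet over the 6 arrays the genes had a Pearson r of 0.379, and Cd79b was dim, below the array median on 4 of 6 arrays. The genes most like the mean of Cd79a, Cd79b and Ms4a1 were Lamtor5 (Pearson r = 0.972), Gask1b (0.970), Zfp36 (0.970), Cep43 (0.963) and Emg1 (0.962), among the same 9092 genes.

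**Figure D3:**
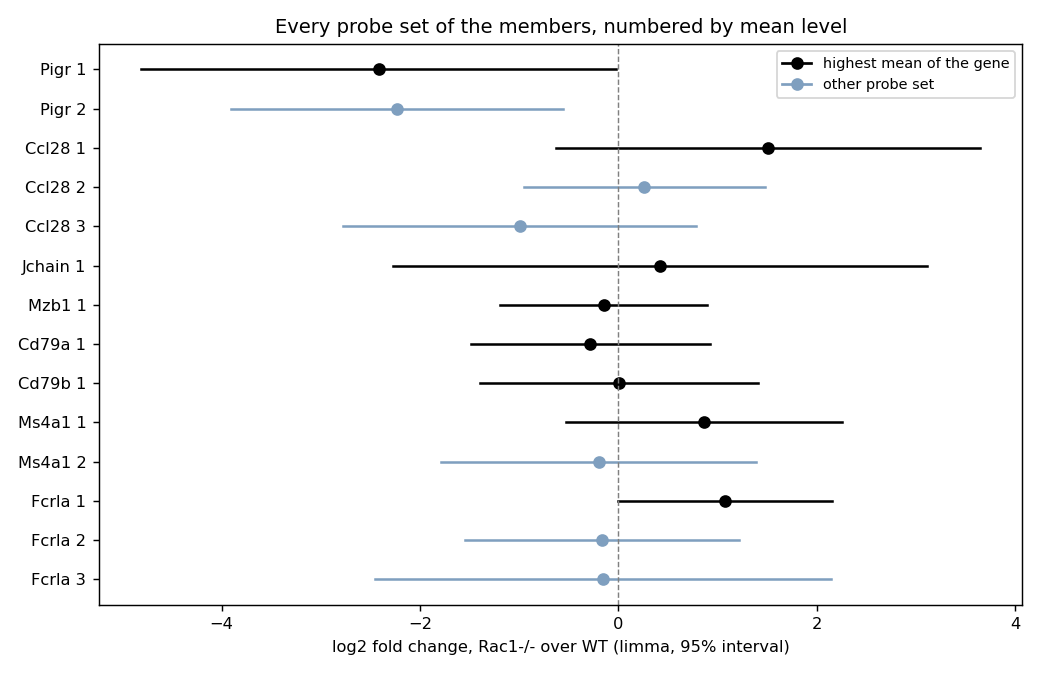
Log2 fold change, Rac1-/- over WT, of all 14 probe sets of the members with 95% intervals from the limma fit over all probe sets; black marks the probe set with the highest mean of its gene and blue the others. Both Pigr probe sets lie at -2.42 and -2.23, whereas the probe sets of Ccl28, Ms4a1 and Fcrla lie on both sides of 0.

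By position in GRCm38.p6, Pigr (chr1:130826684-130852249) and Fcrla (chr1:170917594-170932216) share a chromosome and the remaining members lie on separate ones. Counted together, 5 members were positive and 3 negative, with a median of 0.21, beside 0.060 over all genes. At an unadjusted p under 0.05, 1 member was higher and 1 lower, beside 2.23% and 1.82% of all genes. Without overlap, 1 member was above and 0 below, beside 5.41% and 4.2% of all genes. With 3 mice a group an exact two-sided permutation test cannot go below 0.1, and none was used.

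**Figure D4:**
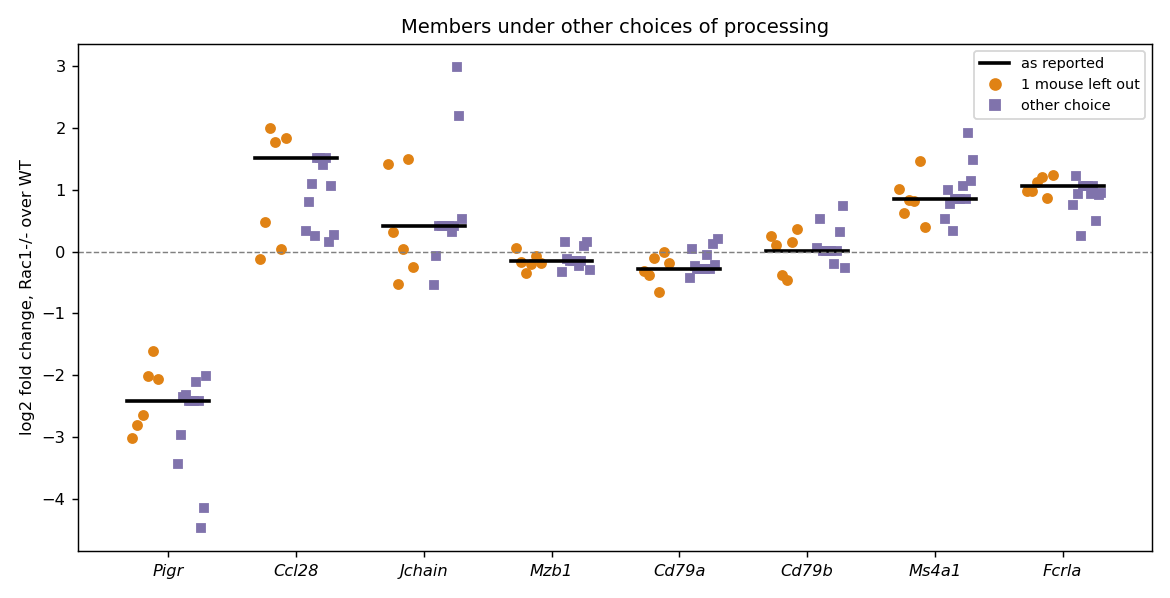
Log2 fold change, Rac1-/- over WT, of each member as reported (black bar), with 1 mouse left out (orange) and under the other choices of processing (purple). Pigr stays below 0 from -4.47 to -1.61 and Fcrla above 0 from 0.25 to 1.24, while Jchain runs from -0.54 to 2.99. Some points of Pigr and Ccl28 rest on another probe set, since it was chosen anew in each alternative.

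Genes that act beside the members were described by lists. Of 17 measured B cell receptor and surface genes, 10 were positive and 7 negative with a median of 0.29, and none had an unadjusted p under 0.05. The median was -0.010 without Rac1-/- mouse 3 and -0.041 with the actin measure in the model. Fcer2a, the low-affinity IgE receptor of mature B cells, read 7.09, 8.18 and 7.11 in Rac1-/- glands and 6.28, 6.75 and 6.17 in WT glands, without overlap (1.06, SE 0.49). It was the 1 gene of the list above without overlap, beside 5.41% of all genes, and was highest in Rac1-/- mouse 2. Syk, the kinase that docks on CD79A and CD79B, gave 0.80 (SE 0.55) with overlap. The list median of single arrays lay between 6.10 and 6.58 in Rac1-/- glands and between 6.17 and 6.28 in WT glands.

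Of 13 transcription factors of B and plasma cells, 7 were positive and 6 negative, with a median of 0.23. In this list 3 genes were above and 1 below without overlap, beside 5.41% and 4.2% of all genes. Spib, a factor of mature B cells, read 7.06, 8.15 and 6.93 in Rac1-/- glands and 6.19, 6.28 and 6.51 in WT glands, without overlap (1.06, SE 0.49). Its highest value was in Rac1-/- mouse 2. Pax5 (-0.21, SE 0.88) and Ebf1 (-0.18, SE 0.80) of the same list overlapped and were lowest in that mouse. Xbp1, which drives the secretory programme of plasma cells and of other secretory cells, including the milk-producing epithelium, read 9.77, 9.66 and 10.78 in Rac1-/- glands and 10.90, 10.90 and 12.53 in WT glands. Every Rac1-/- value was below every WT value (-1.37, SE 0.60, limma adjusted p = 0.946).

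The 15 plasma cell secretory genes had the lowest list median, -0.64, with 4 positive and 11 negative. Unadjusted p was under 0.05 for 2 of them, both lower, beside 1.82% of all genes. The median was -0.17 with the actin measure in the model and -1.09 with a common median. Dnajb9, a cochaperone of the endoplasmic reticulum, read 7.69, 5.21 and 7.96 in Rac1-/- glands and 8.54, 9.18 and 8.59 in WT glands (-1.82, SE 0.74). Fkbp11, a prolyl isomerase of the same compartment, read 7.47, 5.45 and 6.25 in Rac1-/- glands and 7.58, 7.66 and 8.34 in WT glands (-1.47, SE 0.60). Both were below without overlap, as were 4 genes of the list in all, beside 4.2% of all genes. Most genes of this list act in the endoplasmic reticulum of any secretory cell. Which cells the lower values come from was not tested.

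Of 16 homing genes, 13 were positive and 3 negative with a median of 0.46, which was 0.16 without WT mouse 2 and 0.11 with a common median. Ccr10, the CCL28 receptor, was dim and read 4.97, 4.92 and 1.33 in Rac1-/- glands and 5.75, 5.41 and 5.23 in WT glands, without overlap (-1.72, SE 0.93). Ccl27a, the other ligand of CCR10, read 7.23, 9.21 and 7.99 in Rac1-/- glands and 6.42, 5.73 and 7.35 in WT glands, with overlap (1.64, SE 0.65). Madcam1, a vascular docking protein for lymphocytes, was dim and gave -1.79 (SE 0.67). Ccl27a and Madcam1 had an unadjusted p under 0.05, and none of the 3 passed adjustment (limma adjusted p = 0.946 for each).

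Of 10 class switch and survival factors, 5 were positive and 5 negative. Il10, a cytokine that supports antibody-secreting cells, was dim and read 4.67, 4.14 and 4.11 in Rac1-/- glands and 5.22, 5.61 and 4.79 in WT glands, without overlap (-0.90, SE 0.45). Il6 was at the floor in WT mouse 2, so no fold is given. Of 12 genes of transport across epithelium and the neonatal Fc receptor, 3 were positive and 9 negative with a median of -0.36 (-0.099 without Rac1-/- mouse 2), and none separated the groups or had an unadjusted p under 0.05. Within it, Ap1m2, an adaptor subunit of epithelial sorting, gave -0.80 (SE 0.54) and Rab11fip5, of recycling endosomes, gave -0.97 (SE 0.65). Fcgrt, the heavy chain of the neonatal Fc receptor, gave -0.47 (SE 0.55).

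**Figure D5:**
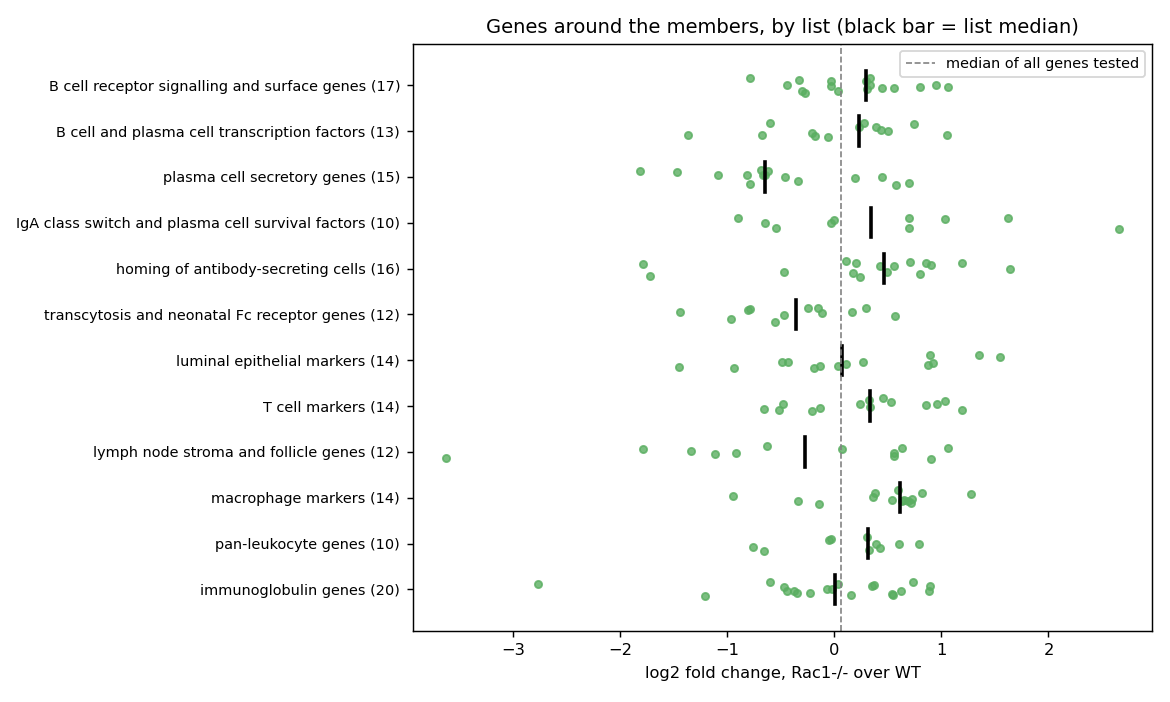
Log2 fold change, Rac1-/- over WT, of single genes (green points) in 12 lists around the members, with the number measured after each name; black bars are list medians and the dashed line is the median of all genes, 0.060. The plasma cell secretory list has its median at -0.64 and the macrophage list at 0.61.

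Markers of the other cells in the gland were read beside these. The 14 luminal markers had a median of 0.073 and were split in direction. Without overlap, 4 of them were above and 2 below, beside 5.41% and 4.2% of all genes. Among these, Elf5, a factor of the alveolar lineage, gave -1.45 (SE 0.47) and Cldn4, a tight junction protein, gave 1.54 (SE 0.48). The luminal list median of single arrays lay between 9.15 and 9.47 in Rac1-/- glands and between 8.59 and 8.92 in WT glands. Over the alternatives the median difference of this list ran from -0.73 to 0.48, the latter with the interquartile range in the model. The part of luminal cell number in the lower Pigr values was not tested. With arrays scaled to a common median the list medians were -0.73 for luminal, -0.14 for macrophage and -0.23 for pan-leukocyte genes, and Pigr was -3.45. Of 12 lymph node stroma and follicle genes, 6 were positive and 6 negative. Glycam1, which the node's vessels and the milk-producing epithelium both make, gave -3.62 (SE 0.50, adjusted p = 0.575), and Madcam1 is named above. The 14 T cell markers had a median of 0.33 (0.19 without WT mouse 2) with 9 positive, Ccr7 at 1.19 (SE 0.74) and Cd8a at 0.86 (SE 0.53), and the 10 pan-leukocyte genes a median of 0.32 (0.019 without WT mouse 3) with 6 positive, Ikzf1 at -0.76 (SE 0.46) and Cd53 at 0.79 (SE 0.54). The 14 macrophage markers had a median of 0.61 (0.33 without Rac1-/- mouse 1) with 11 positive, Ctss at 1.28 (SE 0.72) and Cd14 at -0.95 (SE 0.53). Fcrla and Ms4a1 stood beside lymphocyte lists with medians of 0.29 and 0.33, and the part of lymph node tissue in them was not tested.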

How the data were processed

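RNA of 1 mammary gland from each of 6 mice was amplified with the Affymetrix Sensation kit and hybridized to 1 array per mouse. The authors deposited 1 linear intensity per probe set. How intensities were summarized and normalized is not given in the sources used here, but the mean of each array without the top and bottom 2% was 100. Depth cannot be given for arrays, and the number of mice limits the precision. The labels describe separate animals.

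Quantile normalization was done with limma 3.58.1 under R 4.3.3, and values were set to at least 1 (82 to 1151 per array were lower as deposited) and log2 transformed. The platform annotation gives 1 symbol for 34958 probe sets, several for 932 and no symbol for 9211. Symbols of 34754 were checked against RefSeq by Entrez ID, and 0 differed. Each gene was tested on its probe set with the highest mean, chosen anew in each alternative, by lmFit with eBayes, and p-values were adjusted over 18194 genes after Benjamini and Hochberg. Other probe sets come from the same fit over 45037 probe sets, without the control probe sets. The scripts were tested on simulated data. The members, lists and alternatives were chosen with earlier results of these data known. Named genes are the members and, in each of 11 lists, the 2 with the smallest p. Igha and Ighm, of the bright immunoglobulin genes, and the 5 genes most like Pigr or the B cell mean are also named. Others were named after their values were seen. The immunoglobulin genes were taken by symbol as a further list. Some genes of the lists are not reported here. The 18 alternatives left out each mouse or both arrays that lay apart, scaled to a common median or not at all, added 16 before log2, averaged probe sets, dropped those that can cross-hybridize, kept the brighter genes, used a prior variance that depends on the mean, weighted arrays, tested every probe set, or used the actin measure or the interquartile range as a covariate.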

Additional observations from a re-analysis of the deposited data

How the results depend on the processing

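Under 18 alternatives no gene passed an adjusted p of 0.05 in either direction (0 each), and the sign of Pigr, Ms4a1 and Fcrla was the same in all of them. Several alternatives keep the same values on the same probe set, so these are not 18 separate checks. Of 141 member values, 16 changed sign, and none was called. With 1 mouse left out, Ccl28 ran from -0.12 to 2.01, Mzb1 from -0.34 to 0.052, Jchain from -0.52 to 1.498, Cd79a from -0.66 to -0.0034 and Cd79b from -0.46 to 0.37. Without normalization between arrays the values were -0.066 for Jchain, 0.15 for Mzb1 and 0.050 for Cd79a, and with a common median Jchain was -0.54. With the actin covariate Mzb1 was 0.099 and Cd79a 0.12, and with the interquartile range Mzb1 was 0.16. Without both arrays that lay apart Cd79a was 0.20 and Cd79b -0.26, and with weighted arrays Cd79b was -0.19. The cause was not tested. Some alternatives of Pigr and Ccl28 rest on another probe set. Ccl28, Mzb1 and Cd79b have 17 alternatives each, since they were not tested among the brighter genes. The counts at an unadjusted p under 0.05, 405 higher and 332 lower, ran from 205 to 1143 higher (most without WT mouse 3) and 186 to 535 lower with 1 mouse left out. They were 646 and 180 without normalization, 389 and 538 with a common median, 157 and 205 for genes above the median, 902 and 551 with weighted arrays, 845 and 979 for single probe sets, 800 and 530 without both arrays, 507 and 677 with the actin covariate and 383 and 499 with the interquartile range. The median of all genes was 0.060, but -0.13 with a common median and 0.34 without normalization. The median of the list changed sign in none of the alternatives for the plasma cell secretory genes (-1.09 to -0.17), the transcription factors and the homing genes, and in at least 1 for each of the other lists. No paired analysis was possible because the labels give the mice of both groups no shared replicate numbers. Members dimmer than the array median, such as Cd79b, are limited by background.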
